A study of Drosophila melanogaster with 9 samples.

Results

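The genes described here are the long noncoding RNA (lncRNA) and antisense RNA (asRNA) genes of Drosophila melanogaster that were expressed in S2R+ cells, a line from fly embryos that resembles blood cells. Members were chosen by name and by level over all libraries: they had a FlyBase symbol starting with lncRNA: or asRNA: and a mean of at least 1 count per 1000000 reads in genes (CPM) over 9 libraries. Of 2262 such symbols among 17559 counted genes, 167 met the rule, 139 lncRNA and 28 asRNA genes. Another 717 had 0 reads in every library, and 1378 had reads but stayed under the threshold. Levels chose the members and are therefore given as a description. The 3 genes nearest the threshold inside it were lncRNA:CR44977, lncRNA:CR46085 and asRNA:CR44429, at 1.009, 1.014 and 1.017 CPM. Nearest outside it were lncRNA:CR43437, lncRNA:CR44371 and lncRNA:CR44458, at 0.9959, 0.9953 and 0.9934 CPM.

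The cells made one of 3 proteins through Gal4-UAS with an actin promoter, and 3 libraries of poly(A) RNA were deposited for each. The control group, GFP, expressed a nuclear green fluorescent protein (GFPnls). The second group, Ubx-WT, expressed wild-type Ultrabithorax, a Hox transcription factor that sets segment identity in the fly. The third group, Ubx-N51A, expressed Ubx with a change at a homeodomain residue that contacts DNA. The labels describe Ubx as carrying a myc tag in one place and a GFP tag in another. The labels state that 3 of 4 independent replicates were selected by principal component analysis, a choice that can narrow the spread behind the p-values. Each group's deposited files are named with a different word that mentions sorting, and if it refers to the cells, sorting and expressed protein cannot be told apart.

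Libraries held 30967554 to 66828787 reads in genes, and in the shallowest library 1 CPM stands for about 31 reads. Levels given by library are CPM with library sizes adjusted by TMM factors (trimmed mean of M-values), which even out differences in composition. Ubx had 8 to 89 reads in the GFP libraries and at least 51719 in each Ubx library. These reads separate GFP from Ubx libraries but do not tell which Ubx protein was made. Ubx levels were 1710, 1380 and 1500 CPM with Ubx-WT and 1720, 2050 and 2270 CPM with Ubx-N51A. That difference was not called (log2 0.40, edgeR adjusted p = 0.287), and its part in the members' results was not tested. Of the haemocyte markers, srp, Pxn and crq lay at 228, 471 and 269 CPM while Hml, eater, He and NimC1 lay at 8.2, 1.52, 0.601 and 0.0426 CPM. Of the 9 markers tested, ush fell with Ubx-WT (log2 -0.12, edgeR adjusted p = 0.0378) and Col4a1 with both proteins (-0.215, adjusted p = 0.0407; and -0.25, adjusted p = 0.035), and their part in the members' results was not tested. The summed haemocyte markers ranged from 1360 to 1490 CPM with GFP, 1370 to 1430 with Ubx-WT and 1410 to 1440 with Ubx-N51A. Mitochondrially encoded genes took 1.92% to 3.43% of the reads in GFP libraries, 2.77% to 4.91% in Ubx-WT libraries and 4.11% to 5.87% in Ubx-N51A libraries. These are bulk samples, so fewer cells of a type and less RNA per cell cannot be told apart.

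Long noncoding RNAs are transcribed by RNA polymerase II, usually spliced less than messenger RNAs, and act, where a role is known, as RNA: as scaffolds of protein complexes, as hosts of small RNAs, or through the act of being transcribed next to another gene. In Drosophila the best known are roX1 and roX2, which guide the male-specific lethal (MSL) complex to the X chromosome, Hsromega, which gathers hnRNP proteins into nuclear omega speckles, and flam, a source of piRNAs against transposons. Antisense RNAs overlap another gene on the opposite strand. Most genes with only a CR number have no described function.

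Because many members share bases with a coding gene, the counts were first examined for strand. Of 129 counted genes whose exons were wholly covered by exons of another gene on the opposite strand, and by none on their own, 127 had 0 reads over all 9 libraries. That was true of 62 of the 64 coding genes and of all 47 lncRNA and asRNA genes among them. Genes wholly covered on their own strand were at 0 in 422 of 431 cases, while genes free of exon overlap were at 0 in 1884 of 11946. The counts thus hold almost nothing from bases shared with an opposite-strand exon, as when reads are counted without strand and shared bases are dropped as ambiguous. A member's count therefore comes from the part of its exons that no other gene covers, and there it can include reads of either strand. A lncRNA inside an intron can then also collect reads of unspliced host transcripts.

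By the Ensembl gene models on BDGP6.54, an assembly identical to the submitters' dm6, 66 members lay outside coding genes and overlapped no exon. Another 36 had all or part of their exons in introns of a coding gene on the opposite strand, and 7 on the same strand. Among the 36, lncRNA:CR32773 had only 8.08% of its exon bases there. Exons of 38 members overlapped exons on the opposite strand, those of 19 on the same strand, and those of 1, lncRNA:CR45217, on both. In all, 109 members shared no exon base with another counted gene. Members sat on X (31), 2L (28), 2R (26), 3L (39), 3R (36) and 4 (7), and the X share of 18.6% was close to the 17.4% of the 7183 coding genes with a mean of at least 1 CPM.

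The members were short and weakly expressed. Their median exon length was 1001 bases, against 2161 for those coding genes, and 81 of 167 (48.5%) had a single exon, against 9.58%. The median level was 2.79 CPM against 48.8 CPM, and per kilobase of exon 2.89 against 21.9 RPKM. Only 35 members reached 10 CPM and 3 reached 100 CPM. All members together took 0.212% to 0.277% of reads in genes, and lncRNA:CR42862 alone held 30.1% of those reads. The median coefficient of variation between the GFP libraries was 12.4% for members and 3.99% for the coding genes.

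Per kilobase of exon, lncRNA:CR40469 on X stood highest, at 1420 RPKM over a single exon of 214 bases. It had 203, 225 and 355 CPM with GFP, 229, 358 and 257 with Ubx-WT, compared with 452, 362 and 286 for Ubx-N51A, so the 3 groups overlapped. The next were lncRNA:CR32368 (356 RPKM), lncRNA:CR42862 (133 RPKM), lncRNA:CR43264 (73.9 RPKM), lncRNA:CR45334 (68.5 RPKM), lncRNA:CR43144 (56.5 RPKM), lncRNA:CR43967 (53.6 RPKM) and lncRNA:CR44526 (42.4 RPKM). Of these 8, CR43264 and CR42862 were called in a comparison and the other 6 in none. Near CR44526 lies hry, at a distance of 13450 bases, which encodes the Hairy repressor of the bHLH family. Transcripts of hry fell with both Ubx proteins, with log2 fold changes of -0.39 (adjusted p = 2.3e-05) and -0.34 (adjusted p = 0.000225), while CR44526 had -0.20 and -0.14 and was not called.

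The first comparison asked which members differed with wild-type Ubx. Against GFP, 12 members rose and 3 fell, 15 of 167 or 8.98% (edgeR quasi-likelihood, Benjamini-Hochberg adjusted p under 0.05 over 9207 genes, n = 3 per group). Among all genes tested 16.6% were called, 8.72% higher and 7.83% lower, and the difference from the members' share was not tested. Without the filter on low counts the order of these shares turned, with 17.4% of members and 12.5% of 14726 genes called. The 167 members were the same in both fits, while the genes tested went from 9207 to 14726. The shares over all genes are therefore over unlike sets. Calls over all genes went from 1524 to 1842, and those of members from 15 to 29. The standard errors (SE) of members were larger, with a median of 0.153 against 0.0627 on the log2 scale. The median log2 fold change of the 167 members was 0.07, against 0.0005 over all genes tested, with 97 positive and 70 negative. The groups of libraries did not overlap for 41 members (24.6%), against 35.4% of all genes tested. An unadjusted p under 0.05 was reached by 43 members. The split into rises and falls depended on single libraries: without GFP 1, 4 members were higher and 6 lower, without Ubx-WT 2, 4 and 4, and without GFP 3, 18 and 2. The total was 9 without GFP 2 and 8 without Ubx-WT 2. Of the 15 members, 6 stayed called whichever library was left out, namely noe, CR44920, CR43264, CR45362, CR32773 and CR45217.

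**Figure D1:**
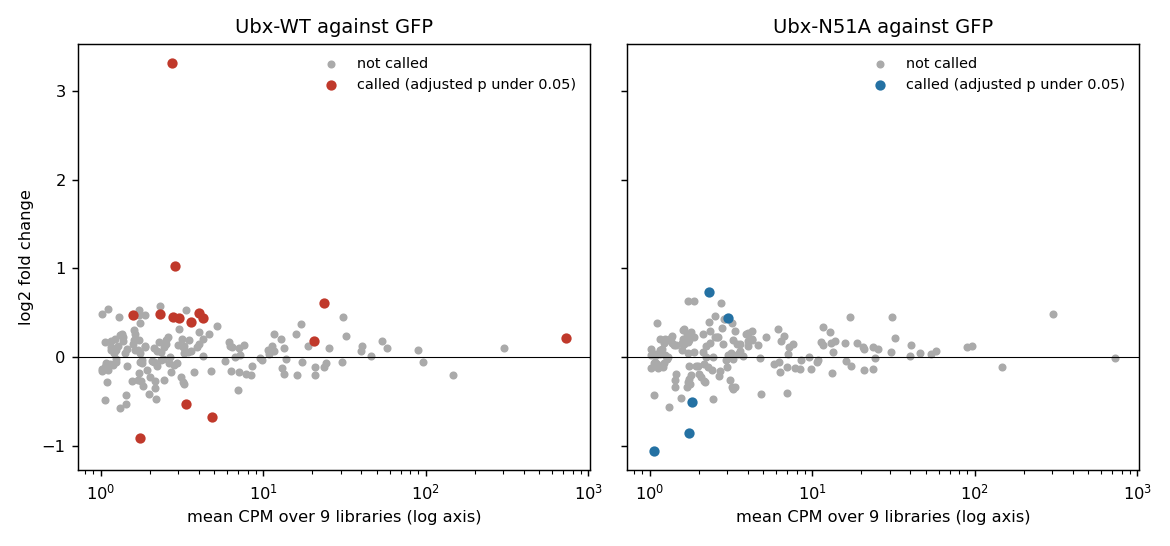
Each point is 1 of the 167 lncRNA and asRNA genes, with its mean CPM over 9 libraries on a log axis and its log2 fold change against GFP, for Ubx-WT (left) and Ubx-N51A (right). Coloured points were called: 15 with Ubx-WT, led by noe at 3.31, and 5 with Ubx-N51A, between -1.06 and 0.74.

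The largest change among members was that of lncRNA:noe (FBgn0026197; chromosome 3L, 17400272 to 17401348, minus strand). It is a single exon of 1077 bases inside an intron of blot, on the same strand. The level of noe was 0.523, 0.586 and 0.80 CPM in the GFP libraries, 5.73, 7.04 and 6.45 CPM with Ubx-WT, while the Ubx-N51A libraries had 1.13, 1.26 and 0.705 CPM. Every Ubx-WT library lay above all others, while GFP and Ubx-N51A overlapped. In reads, the groups held 87, 1036 and 126. The rise with Ubx-WT was 9.92-fold (log2 3.31, SE 0.196; edgeR adjusted p = 1.85e-07), from 0.636 ± 0.145 to 6.41 ± 0.657 CPM (mean ± SD, n = 3). With Ubx-N51A the log2 fold change was 0.61 (SE 0.255; adjusted p = 0.172). Noe had under 1 CPM in the GFP group and met the rule for members through Ubx-WT, so its inclusion was not independent of this difference.

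The host gene blot, which encodes a transporter of the neurotransmitter symporter family, also rose with Ubx-WT, from 0.555 to 1.32 CPM (log2 fold change 1.23, SE 0.253; adjusted p = 0.00513). With Ubx-N51A it had 0.669 CPM (log2 0.31, SE 0.286; adjusted p = 0.547). Per kilobase of exon, noe exceeded blot in every library: by 3.78 to 6.55 times with GFP, 16.9 to 23.6 times with Ubx-WT and 3.92 to 11.2 times with Ubx-N51A. The noe-to-blot ratio was therefore higher in each Ubx-WT library than in any other. Whether reads in noe come from its own transcript or from unspliced blot was not tested.

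**Figure D2:**
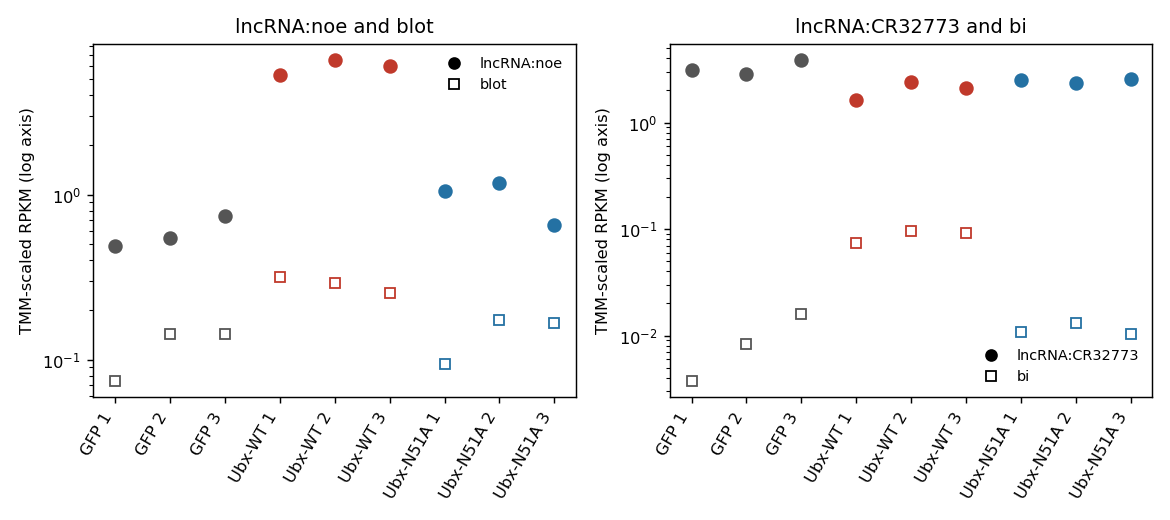
RPKM on a log axis in each of the 9 libraries for noe with its intron host blot (left) and for CR32773 with bi, whose span holds part of its exons on the opposite strand (right), where filled circles are the lncRNA and open squares the coding gene. Noe and blot were both higher with Ubx-WT. CR32773 was lower than with GFP in every Ubx library of either kind, while bi was higher in the Ubx-WT libraries than in all others.

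Of the 3 members that fell with Ubx-WT, lncRNA:CR32773 (X, 4387676 to 4611385, minus strand) spans a region that contains bi. Only 151 of its 1868 exon bases (8.08%) lie within bi, in introns and on the opposite strand. CR32773 had 5.82, 5.38 and 7.22 CPM with GFP, 3.07, 4.47 and 3.94 with Ubx-WT, compared with 4.73, 4.44 and 4.75 for Ubx-N51A. All GFP libraries lay above all Ubx libraries of either kind. The log2 fold change was -0.68 with Ubx-WT (SE 0.136; edgeR adjusted p = 0.00425) and -0.41 with Ubx-N51A (SE 0.137; adjusted p = 0.0886). In the same libraries bi, a T-box transcription factor also known as optomotor-blind, had 1, 2 and 5 reads with GFP, 19, 29 and 38 with Ubx-WT, while the Ubx-N51A libraries had 2, 3 and 4. Transcripts of bi rose with Ubx-WT (log2 3.11, SE 0.374; adjusted p = 0.000101) but stayed at 0.528 CPM, below the 3.82 CPM of CR32773. Per kilobase, CR32773 was 22.2 to 25.2 times as high as bi with Ubx-WT and 179 to 835 times in the other libraries, the latter over at most 5 bi reads.

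The other falls were lncRNA:CR45217 and lncRNA:CR43907. CR45217 (3R, 24229898 to 24231364, minus strand) had 1.95, 2.37 and 3.1 CPM with GFP, 1.16, 1.46 and 1.34 with Ubx-WT, compared with 1.63, 1.45 and 1.16 for Ubx-N51A. The GFP libraries were the 3 highest. Its log2 fold change was -0.91 with Ubx-WT (SE 0.187; edgeR adjusted p = 0.00516) and -0.85 with Ubx-N51A (SE 0.193; adjusted p = 0.0173), and the second call was lost without GFP 2, GFP 3 or Ubx-N51A 3, with an adjusted p of up to 0.0802. It shares 78 bases with Spase22-23, a signal peptidase subunit, 51 with mask and 179 with lncRNA:CR44092, which leaves 60.5% of its exons free. CR44092, at 0.389 CPM, fell with Ubx-N51A (log2 -1.40; adjusted p = 0.0262) and had -0.85 with Ubx-WT (adjusted p = 0.0778). Spase22-23 had -0.15 (adjusted p = 0.0855) and -0.01 (adjusted p = 0.902).

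CR43907 (2R, 500 bases, single exon) lies 150 bases from tou, a chromatin remodelling factor, whose transcripts had a log2 fold change of -0.04 (adjusted p = 0.629). CR43907 itself had 3.55, 4.03 and 4.47 CPM with GFP, 2.9, 2.75 and 2.74 with Ubx-WT, while the Ubx-N51A libraries had 3.56, 3.47 and 2.73. Its fall with Ubx-WT was -0.53 (SE 0.127; edgeR adjusted p = 0.0128), and the call was lost without GFP 3 or Ubx-WT 3 (adjusted p up to 0.0585).

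Among the 12 rises, 4 lay within 120 kb of the start of tsh, which encodes the zinc finger factor Teashirt, a trunk identity gene of the fly. This neighbourhood was singled out after the values were seen, so its count is a description beside the 8.72% of all genes tested that rose. It holds 8 members, while windows of 240 kb opened at each member held at most 4 where they did not overlap it. Windows opened at 2L 21657625 and 21628462, outside the neighbourhood but reaching into it, held 8 and 6. The rises were those of lncRNA:CR44920, lncRNA:CR45362, lncRNA:CR44269 and lncRNA:CR44917.

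CR44920 (2L, 21869956 to 21870652, minus strand) had 2.05, 1.53 and 2.24 CPM with GFP, 3.21, 4.59 and 4.14 with Ubx-WT, compared with 2.3, 2.9 and 2.66 for Ubx-N51A. The groups followed each other without overlap, with Ubx-N51A between the others. The rise with Ubx-WT was 2.04-fold (log2 1.03, SE 0.164; edgeR adjusted p = 0.000917) and the value with Ubx-N51A 0.43 (SE 0.176; adjusted p = 0.161). The nearest coding gene, CG11629, at a distance of 26014 bases, had a log2 fold change of 0.27 (adjusted p = 0.0502) with Ubx-WT.

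CR45362, 2 exons and 5571 bases from the same coding gene, had 2.82, 3.44 and 3.72 CPM with GFP and 4.71, 5.01 and 4.46 with Ubx-WT (log2 0.50, SE 0.11; adjusted p = 0.00784). For CR44269, which lies 2596 bases from CG31612, the levels were 1.73, 1.86 and 2.01 CPM and 2.5, 2.71 and 2.64 CPM (log2 0.49, SE 0.12; adjusted p = 0.0141). CG31612 rose too, from 19.4 to 25.6 CPM (log2 0.40, SE 0.0834; adjusted p = 0.00598). CR44917, 6 exons and 18083 bases from tsh, had 1.36 ± 0.129 CPM with GFP and 1.69, 2.07 and 1.93 CPM with Ubx-WT (log2 0.48, SE 0.147; adjusted p = 0.0415). CR44917 shares 466 exon bases (21.5%) with lncRNA:CR44919 on the opposite strand. CR44919, at 0.228 CPM and no member, had a log2 fold change of 1.13 with Ubx-WT (adjusted p = 0.104). The groups were separate for CR45362, CR44269 and CR44917. However, the call of CR44269 was lost without GFP 1, GFP 2, Ubx-WT 2 or Ubx-WT 3 (adjusted p up to 0.0612). That of CR44917 was lost without GFP 1, GFP 2, Ubx-WT 2, Ubx-WT 3 or Ubx-N51A 3 (adjusted p up to 0.146).

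The other 4 members there were not called. Their log2 fold changes with Ubx-WT were 0.44 for lncRNA:CR44786 (adjusted p = 0.11), 0.22 for lncRNA:CR43762, 0.12 for lncRNA:CR44918 and -0.06 for lncRNA:CR45334. CR45334, at 96.7 CPM, was the most abundant of the 8, with 68.5 RPKM. Transcripts of tsh itself rose slightly, from 200 to 218 CPM (log2 0.13, SE 0.0361; adjusted p = 0.028). With Ubx-N51A none of the 8 was called, and their log2 fold changes ran from 0.09 to 0.43.

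**Figure D3:**
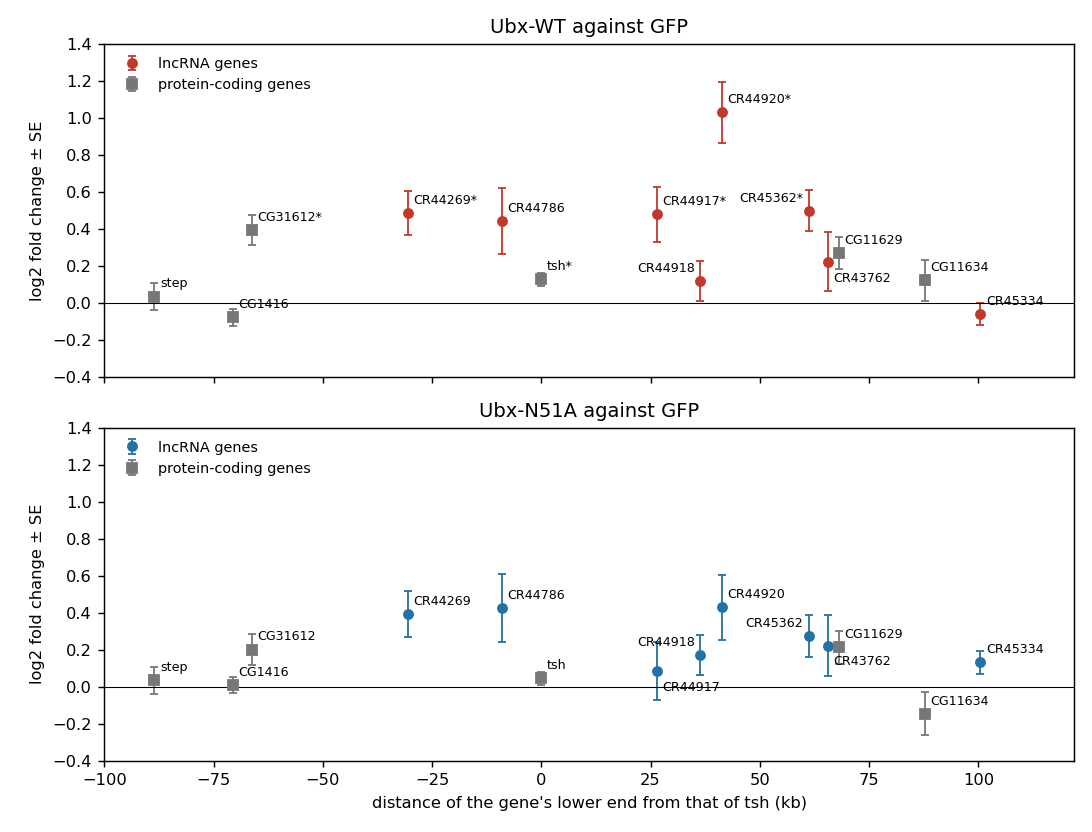
Log2 fold change ± SE against GFP of lncRNA (circles) and coding genes (squares) near tsh, by distance in kb, for Ubx-WT (top) and Ubx-N51A (bottom). Genes shown have their lower end within 120 kb of that of tsh and a mean of at least 1 CPM. Asterisks mark called genes. With Ubx-WT 4 of 8 lncRNAs were called, CR44920 highest at 1.03, against 16.6% of all genes tested, and with Ubx-N51A none, against 8.09%. The calls of CR44269 and CR44917 depended on single libraries.

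Outside this neighbourhood, lncRNA:CR43264 (X, 5831898 to 5832215, minus strand, 318 bases) rose with Ubx-WT. It had 17.5, 18.1 and 22.8 CPM with GFP, 25.3, 33.1 and 30.5 with Ubx-WT, while the Ubx-N51A libraries had 25.7, 19.9 and 18.3. The Ubx-WT group lay above GFP but overlapped Ubx-N51A. The rise was 1.52-fold (log2 0.61, SE 0.131; edgeR adjusted p = 0.00683), and with Ubx-N51A the log2 value was 0.11 (adjusted p = 0.664). Its host CG15765, on the opposite strand, had 0.0555 CPM, or 0.0127 RPKM against 73.9 RPKM for CR43264.

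The most abundant member, CR42862 (3L, 5485 exon bases), had 675, 693 and 716 CPM with GFP, 860, 818 and 744 with Ubx-WT, compared with 655, 749 and 666 for Ubx-N51A. Its rise with Ubx-WT was small, 1.16-fold (log2 0.22, SE 0.0627; edgeR adjusted p = 0.0321), and the call was lost without GFP 1, GFP 2, Ubx-WT 1 or Ubx-WT 2 (adjusted p up to 0.103). It shares 246 bases with CG33229, which had -0.08 (adjusted p = 0.267). For lncRNA:CR45018, a single exon of 4000 bases on X, the levels were 3.41, 3.82 and 3.47 CPM with GFP and 4.56, 5.39 and 4.54 with Ubx-WT (log2 0.44, SE 0.109; adjusted p = 0.0151). That call was lost without GFP 1 or Ubx-WT 2 (adjusted p up to 0.0701). The gene nearest to it, CG1764, had 0.00 (adjusted p = 0.981).

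The 28 asRNA genes among the members gave 3 of the 12 rises and none of the 3 falls. Of all genes tested 8.72% rose and 7.83% fell, and a difference between the classes was not tested. asRNA:CR44987 (2L, 2798 bases) covers part of galectin, a sugar-binding lectin, and of dbr, and 51.8% of it is free. It had 2.23, 2.39 and 2.26 CPM with GFP and 3.02, 3.45 and 2.96 with Ubx-WT (log2 0.45, SE 0.134; adjusted p = 0.0349), while galectin had 0.15 (adjusted p = 0.107). asRNA:CR43864 (X) shares 937 exon bases (56.5%) with CG32801 and 30 (1.81%) with Edem1, both on the opposite strand. No exon base of CG32801 is free of overlap, so its 0 reads do not show its level. CR43864 had 2.23, 2.45 and 2.61 CPM with GFP, 3.52, 3.25 and 3.15 with Ubx-WT, while the Ubx-N51A libraries had 3.83, 3.25 and 2.98. It was the only member called higher with both Ubx proteins (log2 0.44, SE 0.123, adjusted p = 0.0279; and 0.44, SE 0.126, adjusted p = 0.0496), and both calls rested on single libraries. The first was lost without GFP 1, GFP 2 or any Ubx-WT library (adjusted p up to 0.104), and the second without every library in turn but Ubx-N51A 3 (adjusted p up to 0.146). The call of CR44987 was lost without any GFP library, Ubx-WT 2 or Ubx-WT 3 (adjusted p up to 0.128).

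The remaining rises, asRNA:CR43723 and lncRNA:CR42646, were outside the 8 largest. CR43723, opposite Coop, a corepressor of Wingless signalling, had 18.1, 18.8 and 20.6 CPM with GFP and 21.9, 21.7 and 21.8 with Ubx-WT (log2 0.19, SE 0.0586; adjusted p = 0.0467). Coop had 0.14 (adjusted p = 0.135). CR42646, 149 bases from CG10417, had 3.39, 3.18 and 3.06 CPM and 4.33, 4.47 and 3.89 CPM (log2 0.39, SE 0.123; adjusted p = 0.0442). The call of CR43723 was lost when any single library other than GFP 3 or Ubx-N51A 1 was left out (adjusted p up to 0.163), and that of CR42646 when any other than Ubx-N51A 1 or Ubx-N51A 2 was left out (adjusted p up to 0.135).

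**Figure D4:**
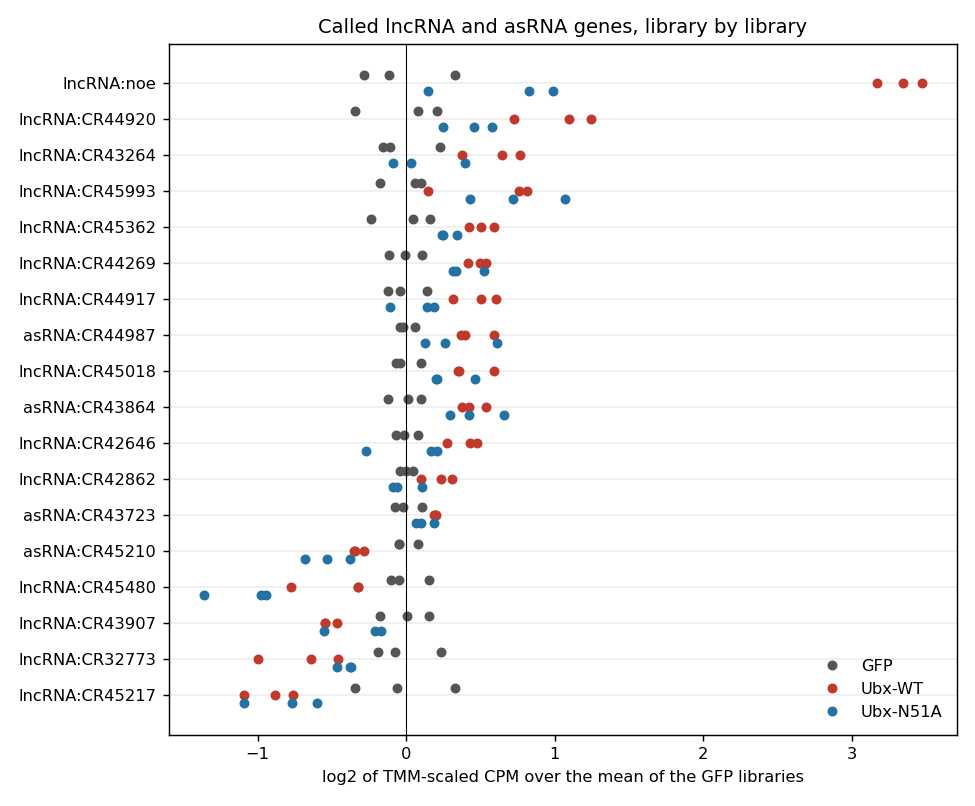
For the 18 members called in at least 1 comparison, each point is 1 library: the log2 of its TMM-scaled CPM over the GFP mean, coloured by group. Noe lies above 3 in each Ubx-WT library and below 1 in the Ubx-N51A libraries, and most other members lie within 1 of the GFP mean.

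Ubx-N51A against GFP asked the same of the protein with the altered homeodomain. Here 2 members rose and 3 fell, 5 of 167 or 2.99%, against 8.09% of all genes tested (3.38% higher and 4.71% lower). Without the filter on low counts these shares were 8.38% and 6.47%, the second over 14726 genes. An unadjusted p under 0.05 was reached by 31 members, and 33 (19.8%) had groups that did not overlap, against 29.4% of all genes tested. The median log2 fold change was 0.061, against 0.0134 for all genes. Of the 5 members, only CR45480, which met the rule for members through its GFP level, kept its call without each library, and the count was between 1 and 3 without GFP 1, GFP 2, GFP 3, Ubx-WT 3, Ubx-N51A 1 or Ubx-N51A 2, lowest without GFP 2.

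The lncRNA CR45480 (X, 2269996 to 2270507, plus strand, 512 bases) lies in an intron of CG2924 on the opposite strand, 501 bases from Grp170, an endoplasmic reticulum chaperone. It had 1.61, 1.4 and 1.35 CPM with GFP, 1.16, 1.16 and 0.846 with Ubx-WT, compared with 0.566, 0.753 and 0.736 for Ubx-N51A. The groups were separate, with Ubx-WT between the others. Group means were 1.45, 1.06 and 0.685 CPM, and without the GFP libraries its mean would lie under 1 CPM, so its inclusion was not independent of this difference. The fall with Ubx-N51A was to 0.481 of the GFP level (log2 -1.06, SE 0.195; edgeR adjusted p = 0.00606), and with Ubx-WT the log2 value was -0.48 (SE 0.177; adjusted p = 0.0845). CG2924 had -0.03 (adjusted p = 0.67), while Grp170 fell with both proteins, with log2 values of -0.28 (adjusted p = 0.000916) with Ubx-N51A and -0.24 (adjusted p = 0.00105) with Ubx-WT.

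Another fall was that of asRNA:CR45210 (3L, 856 bases), opposite nes, a membrane-bound acyltransferase. CR45210 had 2.11, 2.11 and 2.3 CPM with GFP, 1.71, 1.72 and 1.79 with Ubx-WT, while the Ubx-N51A libraries had 1.36, 1.51 and 1.68, again without overlap. The log2 fold change was -0.50 with Ubx-N51A (SE 0.131; edgeR adjusted p = 0.0333) and -0.32 with Ubx-WT (adjusted p = 0.0991), and nes had -0.06 (adjusted p = 0.616). Of the rises, lncRNA:CR45993 (2R, 549 bases) lies in an intron of lbk on the opposite strand. It had 1.45, 1.71 and 1.76 CPM with GFP, 2.88, 2.77 and 1.82 with Ubx-WT, compared with 2.7, 3.44 and 2.21 for Ubx-N51A (log2 0.74, SE 0.21; adjusted p = 0.0496). With Ubx-WT its log2 value was 0.58 (adjusted p = 0.0769). The host lbk rose with both proteins, by 0.15 with Ubx-WT (adjusted p = 0.0326) and 0.16 with Ubx-N51A (adjusted p = 0.0386). The call of CR45993 was lost without any GFP library, Ubx-N51A 1 or Ubx-N51A 2 (adjusted p up to 0.171), and that of CR45210 without any GFP library, Ubx-WT 3, Ubx-N51A 1 or Ubx-N51A 2 (adjusted p up to 0.111).

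Compared directly, the Ubx proteins differed at 3 members, all lower with Ubx-N51A (1.8% of members). Of all genes tested 5.14% were called, 3.91% lower and 1.23% higher. Without the filter on low counts the shares of members and of all genes were 2.99% and 4.47%, the second over 14726 genes. An unadjusted p under 0.05 was reached by 11 members, and groups were separate for 16 (9.58%, against 22.8%). The log2 difference was -2.70 for noe (SE 0.186; edgeR adjusted p = 1.05e-06), -0.60 for CR44920 (SE 0.159; adjusted p = 0.0482) and -0.50 for CR43264 (SE 0.132; adjusted p = 0.0486). Noe met the rule for members through Ubx-WT, so its inclusion was not independent of its difference between the Ubx proteins. Only noe kept its call in this comparison without each library, and the count was 1 without Ubx-WT 2 or Ubx-N51A 3. CR44920 lost its call without GFP 1, Ubx-WT 2, Ubx-WT 3 or any Ubx-N51A library (adjusted p up to 0.176). CR43264 lost its call without GFP 2, Ubx-WT 2, Ubx-WT 3, Ubx-N51A 2 or Ubx-N51A 3 (adjusted p up to 0.178). For CR32773 the difference between the Ubx proteins was 0.27 (SE 0.141; adjusted p = 0.366) and for CR45480 -0.57 (SE 0.201; adjusted p = 0.145), so neither was shown to differ between them. Among the tsh neighbours only CR44920 was called.

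By place, the rises and falls with Ubx-WT numbered 5 and 1 of 66 members outside coding genes. They numbered 4 and 0 of 38 members with exons opposite another gene's. For exons wholly or partly in introns they were 1 and 1 of 36 on the opposite strand, and 1 and 0 of 7 on the same strand. With same-strand exon overlap they were 1 and 0 of 19. The last fall was CR45217. Over all genes tested 8.72% rose and 7.83% fell with Ubx-WT, and differences between places were not tested. Members and the genes beside them were set side by side for log2 fold changes with Ubx-WT, as a description over pairs that share all libraries. The Pearson r was 0.729 over 33 pairs with an opposite-strand exon partner and -0.419 over 36 pairs with an opposite-strand intron host. The latter value includes CR32773 (log2 -0.68) and bi (log2 3.11), the only one of those pairs with both genes called. The value of 0.729 includes partners that are lncRNAs themselves. These are CR44092 (log2 -0.85, 0.389 CPM) for CR45217 (-0.91) and CR44919 (1.13, 0.228 CPM) for CR44917 (0.48). The coding partners Coop, galectin and nes had 0.14, 0.15 and -0.08. Over 149 pairs with the nearest coding gene r was 0.193. Over 8 pairs with a same-strand host r was 0.973, a value that includes noe and blot. With Ubx-N51A r was 0.636 for opposite-strand exon partners, 0.144 for opposite-strand hosts, 0.202 for nearest coding genes and 0.704 for same-strand hosts. Over 12 pairs with a same-strand exon partner r was 0.507 with Ubx-WT and -0.0683 with Ubx-N51A. No opposite-strand exon pair had both genes called with Ubx-WT, although 4 members and 3 partners were called. With Ubx-N51A 1 such pair had both genes called, in the same direction.

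Apart from noe, the members with a name of their own (roX2, Hsromega, flam, mimi, Irar, dntRL and alphagamma-element:CR32865) were not called in any comparison with the group as the only term. The dosage compensation RNA lncRNA:roX2 had 25.0, 30.4 and 35.2 CPM with GFP, 26.6, 31.7 and 29.3 with Ubx-WT, while the Ubx-N51A libraries had 35.0, 31.3 and 28.4. The groups overlapped, and the log2 fold changes were -0.05 (SE 0.11; edgeR adjusted p = 0.8) and 0.05 (SE 0.111; adjusted p = 0.81). Its partner roX1 had 0.0837 CPM and was no member. Of the MSL complex genes msl-1, msl-2, msl-3, mle, mof and Clamp, all 6 were tested and 0 called in any of the 3 comparisons, with medians of 0.033 and 0.023 against GFP.

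Hsromega, 21710 bases of exon, had 82.9, 83.3 and 90.7 CPM with GFP, 83.9, 97.8 and 89.1 with Ubx-WT, compared with 97.3, 95.5 and 86.5 for Ubx-N51A (log2 0.08, adjusted p = 0.439; and 0.12, adjusted p = 0.273). Of 8 genes for proteins of omega speckles, 2 fell with Ubx-WT and the same number with Ubx-N51A, where 7.83% and 4.71% of all genes tested fell. These were Hrb98DE (log2 -0.14 and -0.15) and HnRNP-K (log2 -0.14 and -0.16), both RNA-binding hnRNP proteins, and the other 6 were not called. The piRNA source flam had 6.97, 7.08 and 7.57 CPM in the 3 groups (adjusted p = 0.887 and 0.484). For lncRNA:alphagamma-element:CR32865, 7560 bases from the heat shock gene Hsp70Ba, the log2 fold changes were 0.53 (SE 0.23; adjusted p = 0.141) and 0.64 (SE 0.235; adjusted p = 0.121). Irar had -0.53 with Ubx-WT (SE 0.175; adjusted p = 0.0579), mimi 0.18 (adjusted p = 0.111) and dntRL 0.20 (adjusted p = 0.215).

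Noncoding RNAs of the Hox clusters were no members. No read fell on bxd, transcribed upstream of Ubx, or on iab4 in any library, which with 3 reads as the floor allows up to 0.00705 CPM over all 9 libraries, counting error only. Iab8 had 0.0102 CPM. The host genes of small nucleolar RNAs (Uhg genes) carry no lncRNA: prefix here and were outside the rule. Of 8 measured genes for proteins that pack such RNAs, 7 fell with Ubx-WT and 6 with Ubx-N51A, among them the methyltransferase Fib (log2 -0.38 and -0.33) and nop5 (-0.42 and -0.35), and 0 differed between the Ubx proteins. Over all genes tested 7.83% fell with Ubx-WT and 4.71% with Ubx-N51A. Of 13 genes for RNA surveillance and 3′ end processing, 1 fell with each protein, a share near that of all genes tested: the exosome helicase Mtr4 (log2 -0.16, adjusted p = 0.0178; and -0.17, adjusted p = 0.0197).

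The mitochondrial share of reads, which was higher in the Ubx-N51A libraries than in the GFP libraries, moved with the members. Over the 9 libraries the Pearson r between a member's log2 level and the log2 share had a median of 0.368, against 0.00429 for all genes tested. With each group centred on its own mean the medians were 0.525 and -0.0564. With the log2 of that share as a further term in the edgeR fit, an alternative chosen after seeing the data, 24 members were called with Ubx-WT, 9 higher and 15 lower, in place of 12 and 3 (all genes: 19.1% called, 9.7% higher and 9.41% lower). The median log2 fold change of the members went from 0.07 to -0.047, and 142 of 167 values were lower. With Ubx-N51A 10 members were lower and 0 higher (all genes: 9.09% called, 4.06% higher and 5.03% lower), and the median went from 0.061 to -0.12. Between the Ubx proteins 8 were lower and 0 higher (all genes: 12.5% called, 6.05% higher and 6.43% lower). The share itself differs between the groups, so a part of any group difference goes with it in this fit.

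Of the 15 members called with Ubx-WT, 11 were called in both fits: noe (3.15), CR44920 (0.96), CR42646, CR44269, CR43264, CR45362, CR45018 and CR42862 higher, and CR45217 (-1.12), CR32773 (-0.81) and CR43907 (-0.61) lower. CR44917 near tsh was not called with the share in the fit (0.37, adjusted p = 0.13), nor were the 3 asRNA genes. Gained as lower were 12 members, among them roX2 (-0.21, adjusted p = 0.0232), CR32368 (-0.30, adjusted p = 0.00519) and Irar (-0.60, adjusted p = 0.0445). With Ubx-N51A CR45217 (-1.27, adjusted p = 0.00124) and CR45480 (-0.92, adjusted p = 0.0426) were called in both fits, and CR32773 was gained (-0.65, adjusted p = 0.0171). For roX2 the call thus depended on whether the share was in the fit.

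**Figure D5:**
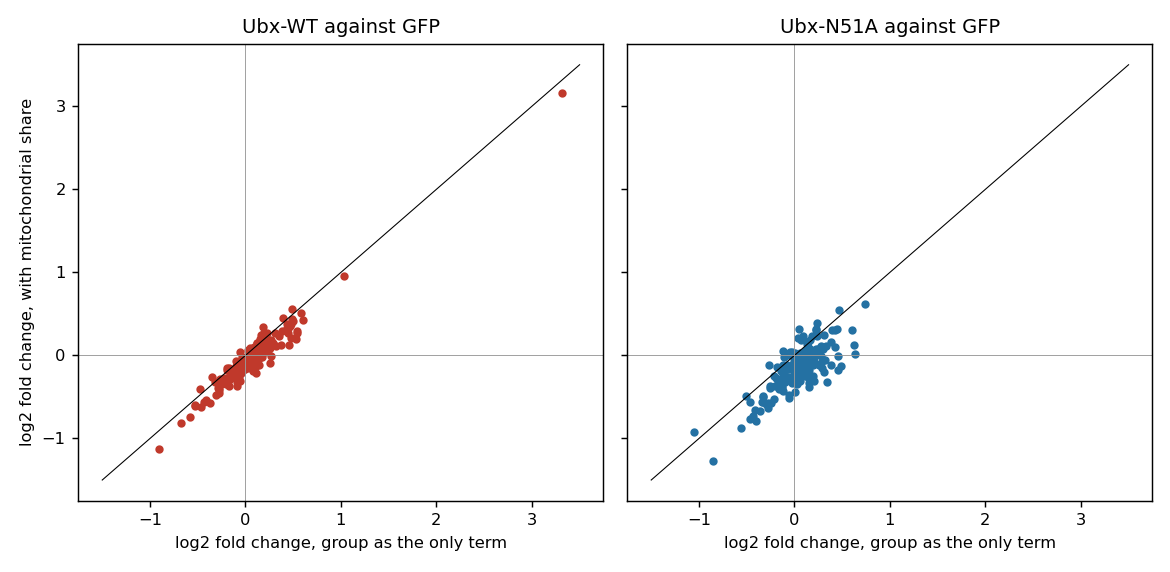
Log2 fold change against GFP of the 167 members with the group as the only term (horizontal) and with the mitochondrial share added (vertical), for Ubx-WT (left) and Ubx-N51A (right); the line marks equal values. In each panel 142 of 167 points lie below the line.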

How the data were processed

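Poly(A) RNA of 9 directional libraries (75 bp single end) was counted. The deposited values are raw read counts per FlyBase gene. The submitters' processing notes list STAR, HTSeq, Trimmomatic 0.36, FastQC, DESeq2 and DESeq, with builds dm6 and BDGP6. Annotation release, settings and strand option were not given in the sources used here. Summary rows (7.87% to 10.44% of reads) stayed out of library sizes and tests. Symbols matched 17253 of 17559 identifiers.

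The deposited counts went into edgeR 4.0.16 (R 4.3.3): filterByExpr (9207 genes, all 167 members included), TMM factors of 0.971 to 1.026, and 1 quasi-likelihood fit of 3 groups of 3. The call threshold was an adjusted p (Benjamini-Hochberg) of 0.05. Levels by library are TMM-scaled CPM; RPKM divides by merged exon length, covered bases included, so it understates overlapped members. An SE is the fold change over the root of F. The members and lists were chosen with earlier results of these data known. Named genes are members with a known role, up to 8 largest rises and 8 largest falls per comparison with separate groups, the 8 highest per kilobase, 3 on each side of the threshold, and the coding genes beside them. Alternatives were DESeq2 1.42.0, other scaling, filters, member thresholds, a replicate block, 2 groups at a time, each library left out, and the mitochondrial share as a term. In simulated counts for Ubx-WT against GFP, 85.1% of 2-fold changes and 62.7% of changes of 0.32 on the log2 scale were recovered over 9066 genes, with 5.23% false calls. The Ubx-N51A simulation against GFP gave 73.1% and 53.7% over 9086 genes, with 6.83% false calls. The changed genes were drawn from all genes tested, so these rates do not describe the members. For Ubx-WT against GFP the members' median SE was 0.153, against 0.0627 for all genes. Recovery among members was not tested. No library pair was a duplicate. Sequences were not printed, as no genome was used here.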

Additional observations from a re-analysis of the deposited data

How the results depend on the processing

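No fold change of a called member turned in sign under any of these alternatives. With RLE scaling in place of TMM, members called in Ubx-WT against GFP, Ubx-N51A against GFP and Ubx-N51A against Ubx-WT numbered 15, 4 and 3, and with DESeq2 16, 4 and 3. Without the filter on low counts they numbered 29, 14 and 5, or 17.4%, 8.38% and 2.99% of members. Over the 14726 genes then tested the shares were 12.5%, 6.47% and 4.47%. The members' share passed that of all genes in both comparisons with GFP, but the latter now took in genes that the filter removes. With Ubx-WT, calls over all genes went from 1524 to 1842. The cause of the increase among members was not tested. Among the 109 members without exon overlap 9, 2 and 3 were called, a smaller list. At a mean of at least 0.5 CPM the counts were 20, 5 and 4 of 259 members, and at 2 CPM 13, 2 and 3 of 108. The lists differ in size, so these counts do not compare directly. With Ubx-WT the share called was 7.72% at 0.5 CPM, 8.98% at 1 CPM and higher again at 2 CPM. Each was below the 16.6% of all genes tested. Fitting 2 groups at a time gave 15, 4 and 1 of the 167 members. With the mitochondrial share as a covariate the counts of members were 24, 10 and 8, and over all genes 1759, 837 and 1149. Leaving out each library gave 8 to 20, 1 to 5 and 1 to 3 members, and 990 to 1741, 362 to 823 and 302 to 474 genes in all. Libraries with the same replicate number did not deviate together (r of -0.108 to 0.177), so the numbers are not taken to pair the samples; with a replicate block 11, 4 and 1 members and 1369, 607 and 401 genes were called. At these depths 35 of 167 members reached 10 CPM, and the members' median SE for Ubx-WT against GFP was 0.153, against 0.0627 for all genes; the part of depth in the members' share of calls was not tested. RLE scaling, DESeq2 and no filter each moved the median of all genes by less than 0.1 on the log2 scale.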

Other observations

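The level of several members followed the mitochondrial share of reads across the 9 libraries. Over the 167 members, with log2 of CPM plus 0.1 against the log2 share, 11 Pearson correlations passed an exact permutation test over all 362880 orders of the libraries, two-sided and Benjamini-Hochberg adjusted over the 167, and all 11 were positive. By Spearman's rank correlation 11 members passed as well, 7 of them by both measures. The share of all genes tested that would pass is not given here, so the counts are not set against it. The orders ran across groups, so these p-values do not separate differences between groups from a relation within them. The other 4 Pearson calls, CR45102, CR43241, CR45625 and CR45328, had adjusted permutation p of 0.078 to 0.147 by rank. The 5 members described here passed by both. The members were picked out after these values were seen. The highest was lncRNA:CR43958 on chromosome 4, with Pearson's r of 0.974 (adjusted permutation p = 0.00138) and Spearman's rho of 1.0 (adjusted permutation p = 0.00092), and r was 0.946 without the libraries farthest from the median share, GFP 1 and Ubx-N51A 1. Its level was 4.64, 5.73 and 5.99 CPM with GFP, 5.61, 7.1 and 5.79 with Ubx-WT, while the Ubx-N51A libraries had 8.19, 6.37 and 6.12. For dntRL r was 0.956 (adjusted permutation p = 0.00759), rho 0.967 (adjusted permutation p = 0.0138), and r without those libraries 0.847.

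For alphagamma-element:CR32865 r was 0.955 (adjusted permutation p = 0.0069), rho 0.917 (adjusted permutation p = 0.0243), and r without the same libraries 0.843. CR40469, the member with the highest level per kilobase, had r of 0.89 (adjusted permutation p = 0.0257), rho of 0.95 (adjusted permutation p = 0.0147) and 0.777 without them. Hsromega had r of 0.847 (adjusted permutation p = 0.0372), rho of 0.917 (adjusted permutation p = 0.0243) and 0.82 without them. With each group centred on its mean, r was 0.96 for CR43958, 0.941 for dntRL and 0.956 for alphagamma-element:CR32865. It was 0.859 for CR40469 and 0.784 for Hsromega. These centred values were positive too, but they were not tested. By place, the median r after centring was 0.624 over the 66 members outside coding genes. It was 0.515 over the 36 with exons wholly or partly in opposite-strand introns and 0.504 over the 38 with opposite-strand exons. What sets the share in a library was not tested.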
